A study of Mus musculus with 22 samples.

Results

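*Ndn* (ENSMUSG00000033585) encodes necdin, a protein of the MAGE family, and was followed here as a single gene in the brains of newborn mice of 2 models of Prader-Willi syndrome. It was 1 of 55409 genes in the count tables and was taken by its symbol in both of them. It was chosen by its counts in the 2 genotype comparisons, higher in PWS-cr mice and nearly lost in PWS-IC mice, so its levels by genotype are given below as a description and without a test. Tests are given only for litter, for sex and for other genes.

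RNA sequencing was done on whole brain at postnatal day 0. PWS-cr mice were heterozygous for the *Snord116* critical-interval deletion (line B6(Cg)-Snord116tm1Uta/J), carried on the paternal chromosome, and were compared with wild-type littermates (WT). PWS-IC mice were heterozygous for a deletion of the Prader-Willi imprinting centre, also of paternal origin, and were compared with their own WT littermates. The labels name 22 libraries, of which 20 had a column, namely 6 PWS-cr and 5 WT libraries from 4 litters, and 4 PWS-IC and 5 WT libraries from 2 litters. Each library came from the whole brain of 1 pup, so that a lower level per cell and fewer cells of a type cannot be told apart. The genetic background of the sequenced litters is not given apart from that of the behavioural cohorts.

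*Ndn* is imprinted, which means that the copy inherited from the father is transcribed while the maternal copy is silent, and its activity on the paternal chromosome depends on the imprinting centre near *Snrpn*. The gene has no intron. Necdin is abundant in postmitotic neurons, where it binds cell-cycle transcription factors such as E2F1 and p53 and neurotrophin receptors, and it is known for roles in neuronal differentiation and survival.

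In the mm10 annotation *Ndn* lies on the forward strand at chr7:62346569-62350262, spans 3694 bases and has 1 transcript of 1 exon, with the coding sequence at chr7:62348408-62349382 (325 codons before the stop). Levels are given as CPM, counts over the library size scaled by the trimmed mean of M values (TMM). A gene of the opposite strand, *Gm32061* (chr7:62337794-62423245), runs across it but shares 0 exon bases with it. The libraries were unstranded, so the reads of the 2 strands could not be separated. *Gm32061* averaged 0.298 ± 0.124 CPM in PWS-cr mice and 0.259 ± 0.0375 CPM in WT (SD, n = 6 and 5), which is far below *Ndn* in the same libraries.

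The sequences just before the RefSeq start sites (GRCm38.p6) of *Ndn*, at chr7:62348027-62348276, and of its neighbour *Magel2*, at chr7:62376729-62376978, are shown because both genes were nearly silent in the PWS-IC libraries other than 1 described below, while of the 2 only *Ndn* was higher in each PWS-cr library than in each WT library. RefSeq places the start of *Ndn* downstream of the annotated start given above, so the *Ndn* window lies inside the annotated exon. Capitals mark each CpG, the dinucleotide at which mammalian DNA is methylated.
Ndn: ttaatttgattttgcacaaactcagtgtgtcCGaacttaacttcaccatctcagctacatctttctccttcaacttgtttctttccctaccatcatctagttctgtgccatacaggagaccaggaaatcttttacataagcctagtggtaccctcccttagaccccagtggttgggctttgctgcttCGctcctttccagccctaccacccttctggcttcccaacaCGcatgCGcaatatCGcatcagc
Magel2: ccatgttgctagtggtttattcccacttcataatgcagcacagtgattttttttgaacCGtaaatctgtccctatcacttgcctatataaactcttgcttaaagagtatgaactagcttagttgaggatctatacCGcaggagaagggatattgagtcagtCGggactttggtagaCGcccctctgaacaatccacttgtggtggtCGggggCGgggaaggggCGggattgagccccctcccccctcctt
The 250 bases held 5 CpGs in *Ndn*, with a GC content of 47.2%, and 7 CpGs in *Magel2*, with a GC content of 48.8%. The corresponding stretches held 10 CpGs in *Mkrn3* and 8 in *Peg12*, 2 further paternally expressed genes, and 24 in *Ube3a*, which is expressed from the maternal copy in neurons. The median over 32851 RefSeq promoters was 6 CpGs, and 44.4% of promoters held fewer than *Ndn*. The letters GCATGCGC, a core of the NRF1 motif that was looked for only after the sequence had been read, were found on either strand in 2.26% of these promoters. They stood 22 bases before the *Ndn* start, overlapping 2 of the capital pairs, and were not found in the windows of *Magel2*, *Mkrn3* or *Peg12*. The windows of *Snrpn* were not part of this comparison. Some of them hold CGCATGCG, which also stands at this place in *Ndn*, so these letters are not particular to *Ndn* within the interval.

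Total counts ranged between 45798407 and 62103143 per library. In the PWS-IC series 2 libraries went against their labels. The library labelled 1_3_IC, a PWS-IC female, had 390 CPM of *Snrpn*, 1.38 CPM of *Xist* and 68.7 CPM of the Y-linked gene *Eif2s3y*, whereas the library labelled 1_7_IC, a WT male, had 5.59 CPM of *Snrpn*, 2032 CPM of *Xist* and 0.147 CPM of *Eif2s3y*. Both were kept under their labels. PWS-IC results are given over the 7 other libraries, with the values of all 9 beside the levels, counts of calls and lists of genes. By label the 4 PWS-IC pups were female, and the WT pups with a column were 4 males and 1 female. In the 7 libraries each PWS-IC pup was female and all WT pups but 1 were male. Sex was thus confounded with genotype in this series, and the main model held no sex term. The part of sex in its calls and shares of genes was not tested.

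In the PWS-cr series *Ndn* was higher in every PWS-cr library than in every WT library. PWS-cr replicates 1 to 6 had 437, 457, 456, 442, 393 and 482 CPM, against 211, 259, 261, 314 and 359 CPM in WT replicates 1, 3, 4, 5 and 6, all scaled by TMM within the series. The groups did not overlap, and the gap lay between PWS-cr replicate 5 from litter 3 and WT replicate 6 from litter 4. The means were 445 ± 29.8 CPM in PWS-cr mice and 281 ± 56.8 CPM in WT (SD, n = 6 and 5), a ratio of 1.58. With litter in the model the log2 fold change was 0.75 (SE 0.0948), and without the WT library of litter 1 it was 0.55.

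**Figure D1:**
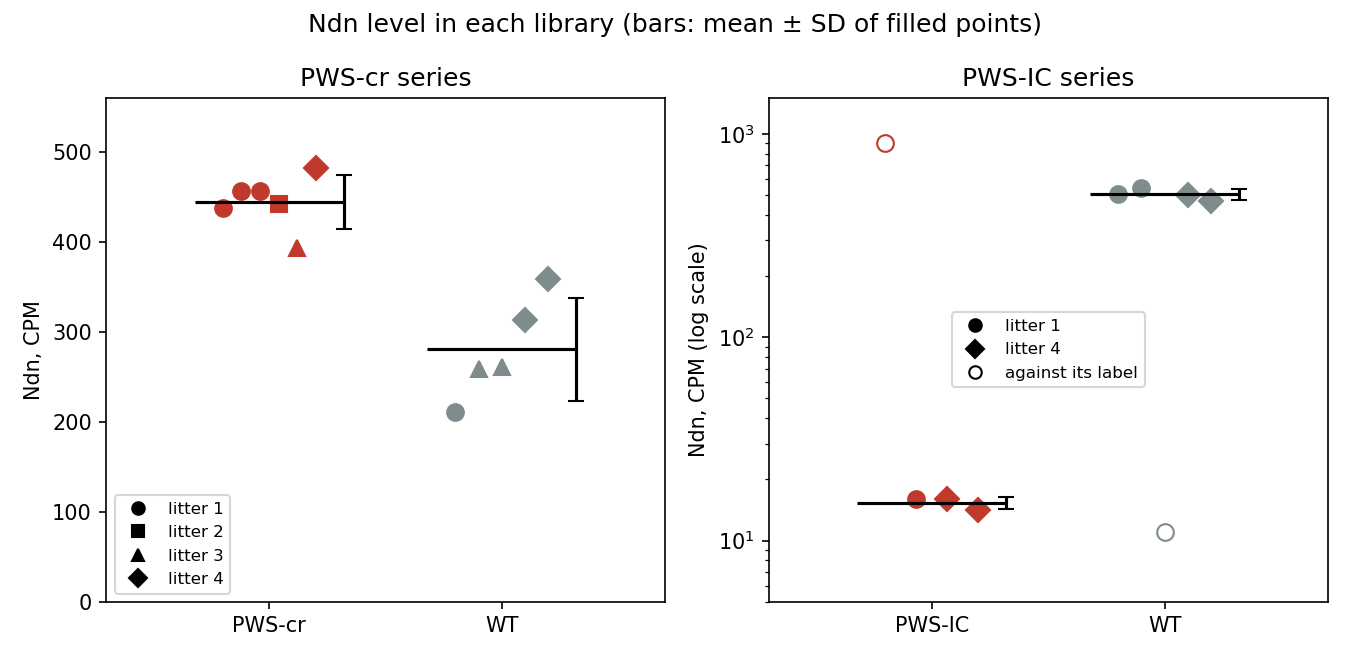
*Ndn* in each library as CPM, on a linear axis for the PWS-cr series and on a log axis for the PWS-IC series, with a symbol for each litter and bars for the mean ± SD of the filled points. The 6 PWS-cr libraries sit between 393 and 482 CPM, above the 5 WT libraries, while in the PWS-IC series 1 open point in each group, a library that went against its label, sits in the range of the other group or beyond it.

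The counts behind these levels ranged between 19940 and 24821 in PWS-cr mice and between 11240 and 17221 in WT, so the 95% Poisson interval of a library reached at most 1.39% to either side in PWS-cr mice and 1.85% in WT. These intervals cover counting error only and were far narrower than the spread between pups, whose coefficient of variation was 6.70% in PWS-cr mice and 20.3% in WT. Per length, as TPM in the deposited values, *Ndn* lay between 428 and 515 TPM in PWS-cr mice and between 233 and 390 TPM in WT. It ranked 161st to 223rd among the genes of a PWS-cr library and 236th to 573rd among those of a WT library, so it was among the abundant transcripts of the newborn brain in both genotypes.

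Of 22172 genes tested, 18 (0.0812%) were higher in each PWS-cr library than in each WT library. Of the 2578 genes with a mean of at least 100 CPM, none had a larger positive log2 fold change than *Ndn*. By edgeR's quasi-likelihood test with Benjamini-Hochberg adjustment 3 genes were called (0.0135%), 1 higher and 2 lower. By DESeq2 7 genes were called (0.0316%). Since these contrasts served to pick *Ndn*, no test of it is read from them, and the counts are background for other genes.

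The ratio of genotype means differed between litters, and each ratio rested on 1 pup in at least 1 genotype. Whether the genotype difference depended on litter was not tested, and the litter test below concerns the level only. In litter 1 the 3 PWS-cr pups averaged 450 CPM against 211 CPM in the single WT pup, a ratio of 2.13. In litter 3 the PWS-cr pup had 393 CPM and the WT pups averaged 260 CPM, a ratio of 1.51. In litter 4 the PWS-cr pup had 482 CPM and the WT pups averaged 336 CPM, a ratio of 1.43. PWS-cr pups were thus above their WT littermates in each litter that held both genotypes. Litter 2 was represented by 1 PWS-cr pup with 442 CPM and by no WT pup. The WT levels were ordered by litter, with litter 1 lowest and litter 4 highest, and the 2 WT pups of litter 3 were nearly alike, whereas the PWS-cr pups followed another order, with litter 3 lowest. The counts that served to choose the gene were viewed by genotype and litter, so a test for litter is not independent of that choice. For litter edgeR's quasi-likelihood test gave an unadjusted p of 0.0300 and an adjusted p of 0.758, from which no conclusion is drawn. *Ndn* was not among the 5 genes called for litter (0.0226%).

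**Figure D2:**
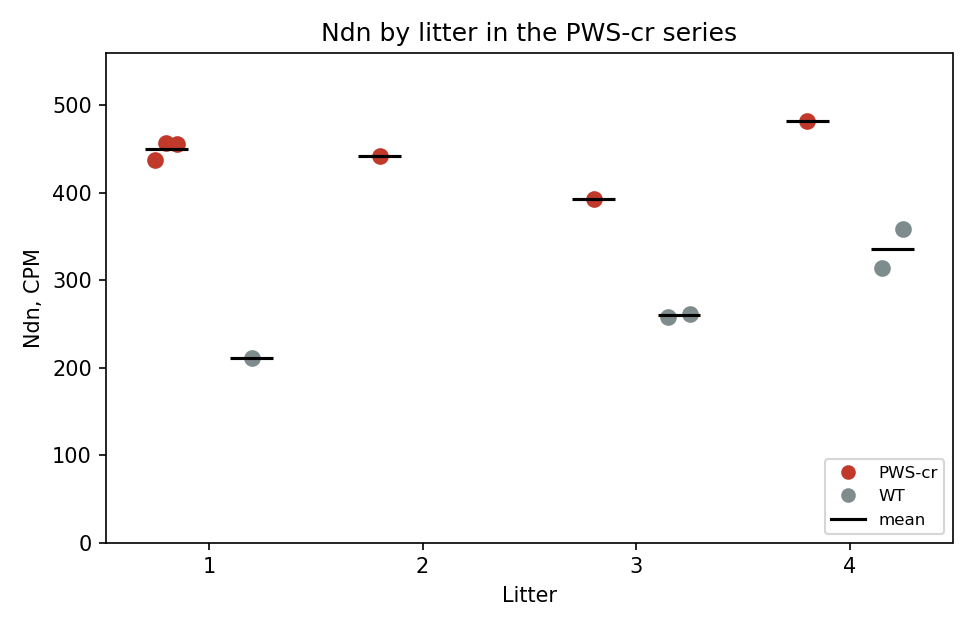
*Ndn* in CPM by litter in the PWS-cr series, with a point for each pup and a line at the mean of each genotype within a litter. PWS-cr pups are above their WT littermates in litters 1, 3 and 4, with means of 450 against 211, 393 against 260 and 482 against 336 CPM.

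Male and female pups were both present in this series. PWS-cr males had 437, 457 and 393 CPM, against 259, 314 and 359 CPM in WT males. PWS-cr females had 456, 442 and 482 CPM, against 211 and 261 CPM in WT females. In both sexes the PWS-cr pups were above the WT pups. The log2 difference of males over females, with genotype and litter in the model, was 0.10 (SE 0.0841) and was not called by edgeR (unadjusted p = 0.263, adjusted p = 1.00), while 7 genes were called for sex (0.0316%). Whether the genotype difference itself depended on sex was not tested.

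In the PWS-IC series *Ndn* was nearly absent from the PWS-IC libraries other than 1_3_IC. PWS-IC replicates 1 to 4 had 899, 15.9, 16.1 and 14.1 CPM, against 506, 544, 11.0, 499 and 467 CPM in WT replicates 1, 2, 3, 5 and 6, of which PWS-IC replicate 1 is 1_3_IC and WT replicate 3 is 1_7_IC. As labelled the groups overlapped at both ends, and the means were 236 ± 442 CPM in PWS-IC mice and 405 ± 222 CPM in WT (SD, n = 4 and 5), with a log2 fold change of -1.63 (SE 1.60). Without the 2 libraries the means were 15.4 ± 1.08 CPM in PWS-IC mice and 504 ± 31.6 CPM in WT (SD, n = 3 and 4), so that PWS-IC mice had 3.05% of the WT level, and the log2 fold change was -5.01 (SE 0.0781).

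The remaining signal was small but well above 0 counts. PWS-IC replicates 2, 3 and 4 had 846, 848 and 898 counts, against 29406, 29281, 29816 and 23868 counts in WT replicates 1, 2, 5 and 6. Counting error reached at most 6.80% to either side in those PWS-IC libraries and 1.27% in those WT libraries. The share of the WT level that remained was 3.04% in litter 1 and 3.12% in litter 4, so the litters were close. Where these reads came from was not tested. Per length *Ndn* had 14.95 to 17.0 TPM in the 3 PWS-IC libraries, which placed it 8701st to 9341st among genes, and 490 to 555 TPM in the 4 WT libraries, which placed it 144th to 161st. As labelled the 9 libraries spanned 14.95 to 728 TPM in PWS-IC mice and 11.2 to 555 TPM in WT. Over the 7 libraries 1201 of 21913 genes (5.48%) were lower in each PWS-IC library than in each WT library, against 256 of 22367 genes (1.14%) over the 9, among which *Ndn* was not.

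The WT levels of the 2 series also differed. The choice of *Ndn* drew on these same WT counts and the pups share litters, so the values are a description. On a scaling common to all 20 libraries, WT of the PWS-IC series other than 1_7_IC had 513, 549, 501 and 470 CPM, and WT of the PWS-cr series had 210, 257, 258, 311 and 355 CPM. These groups did not overlap, and the means were 508 ± 32.6 CPM in WT of the PWS-IC series and 278 ± 55.9 CPM in WT of the PWS-cr series (SD, n = 4 and 5). The mean log2 difference, PWS-IC series minus PWS-cr series, was 0.89. With 1_7_IC kept under its label the difference was -0.21, so its direction rests on leaving that library out. Of 20904 genes, 9.07% were higher in each of the 4 WT libraries of the PWS-IC series than in each WT library of the PWS-cr series, so a gap of this kind was not rare.

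Series, colony, litters and any sequencing run cannot be told apart in this comparison. The summed level of 7 red blood cell genes moved with it, at 137 to 326 CPM in the 4 WT libraries of the PWS-IC series and 92.1 to 110 CPM in WT of the PWS-cr series, scaled within each series. Endothelium and pericyte genes were lower, at 284 to 304 CPM in those 4 libraries and 346 to 400 CPM in WT of the PWS-cr series. In the other 12 of 14 marker lists the summed levels overlapped, and the part of these lists in the difference was not tested. On the scaling common to all libraries the PWS-cr mice had 388 to 477 CPM. Their highest library thus lay above the lowest of the 4 WT libraries of the PWS-IC series, at 470 CPM, while their median of 444 CPM lay below all 4.

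In the PWS-cr series no protein-coding, paternally expressed neighbour was called. *Magel2*, which encodes another MAGE protein and starts 30.4 kb from *Ndn*, had 42.0, 44.6, 47.0, 40.7, 34.8 and 50.6 CPM in PWS-cr replicates 1 to 6, against 44.7, 43.5, 61.1, 50.8 and 67.1 CPM in WT replicates 1, 3, 4, 5 and 6. The groups overlapped, and the log2 fold change was -0.26 (SE 0.132, edgeR adjusted p = 1.00). *Mkrn3*, which encodes a RING-finger protein that restrains the onset of puberty, averaged 17.6 CPM in PWS-cr mice and 18.2 CPM in WT. *Peg12*, a gene of the Frat family, averaged 3.43 CPM in PWS-cr mice and 3.50 CPM in WT. *Snrpn*, which encodes a splicing protein of neurons, averaged 280 ± 21.0 CPM in PWS-cr mice and 266 ± 22.0 CPM in WT (SD, n = 6 and 5). By contrast 3 transcripts of the interval outside this list, *A230103L15Rik*, *Gm44559* and *Gm44562*, were higher in each PWS-cr library than in each WT library. *Snurf*, which shares its transcript with *Snrpn*, was listed at 0 counts in all libraries and was not tested.

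Within 4 Mb of *Ndn* 61 other genes were tested in the PWS-cr series, and 3 of them were called, which are the 3 genes called among all 22172. *Snhg14*, the long transcript that hosts the deleted *Snord116* cluster, averaged 46.3 CPM in PWS-cr mice and 147 CPM in WT and fell by 1.67 on the log2 scale (SE 0.0650, edgeR adjusted p = 2.4e-06). *Gm44831* averaged 0.00314 CPM in PWS-cr mice and 4.79 CPM in WT and fell as well (edgeR adjusted p = 0.000151).

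*A230103L15Rik*, which the annotation lists as a transcript still awaiting experimental proof, was the single call upwards and also had the profile most like that of *Ndn* over the 11 libraries. It lies at chr7:59327318-59331189, with its start 3.02 Mb before that of *Ndn*. PWS-cr replicates 1 to 6 had 90.9, 81.8, 91.5, 71.8, 89.0 and 79.5 CPM, against 52.5, 56.2, 51.0, 56.0 and 61.2 CPM in WT replicates 1, 3, 4, 5 and 6. The groups did not overlap, and the log2 fold change was 0.64 (SE 0.0670, edgeR adjusted p = 0.0130). Its root mean square difference from *Ndn*, on log2 CPM relative to the WT mean, was 0.197 over 11 libraries. The next most alike were *Tmem262*, *Gm13572*, *Tcam1* and *Gm3571*, which differed by 0.198 to 0.232 and averaged less than 0.5 CPM in either genotype, where few counts set the profile. Because likeness was measured on the genotypes that picked *Ndn*, it is a description.

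Other transcripts near *A230103L15Rik* had positive values that edgeR did not call. *Gm44559* had 13.6 to 17.9 CPM in PWS-cr mice and 9.66 to 12.2 CPM in WT, averaging 16.2 ± 1.53 CPM in PWS-cr mice and 11.0 ± 0.939 CPM in WT (edgeR adjusted p = 0.0970). *Gm44562* had 18.8 to 26.4 CPM in PWS-cr mice and 15.5 to 17.7 CPM in WT, averaging 23.1 ± 2.73 CPM in PWS-cr mice and 16.7 ± 0.823 CPM in WT (edgeR adjusted p = 0.115). In neither transcript did the groups overlap. DESeq2 called both, so the call depended on the test. The single gene within 4 Mb with a larger positive value than *Ndn* was *Gm24983*, with a log2 fold change of 0.96 (SE 0.299) at 0.303 CPM in PWS-cr mice and 0.167 CPM in WT, and it was not called.

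**Figure D3:**
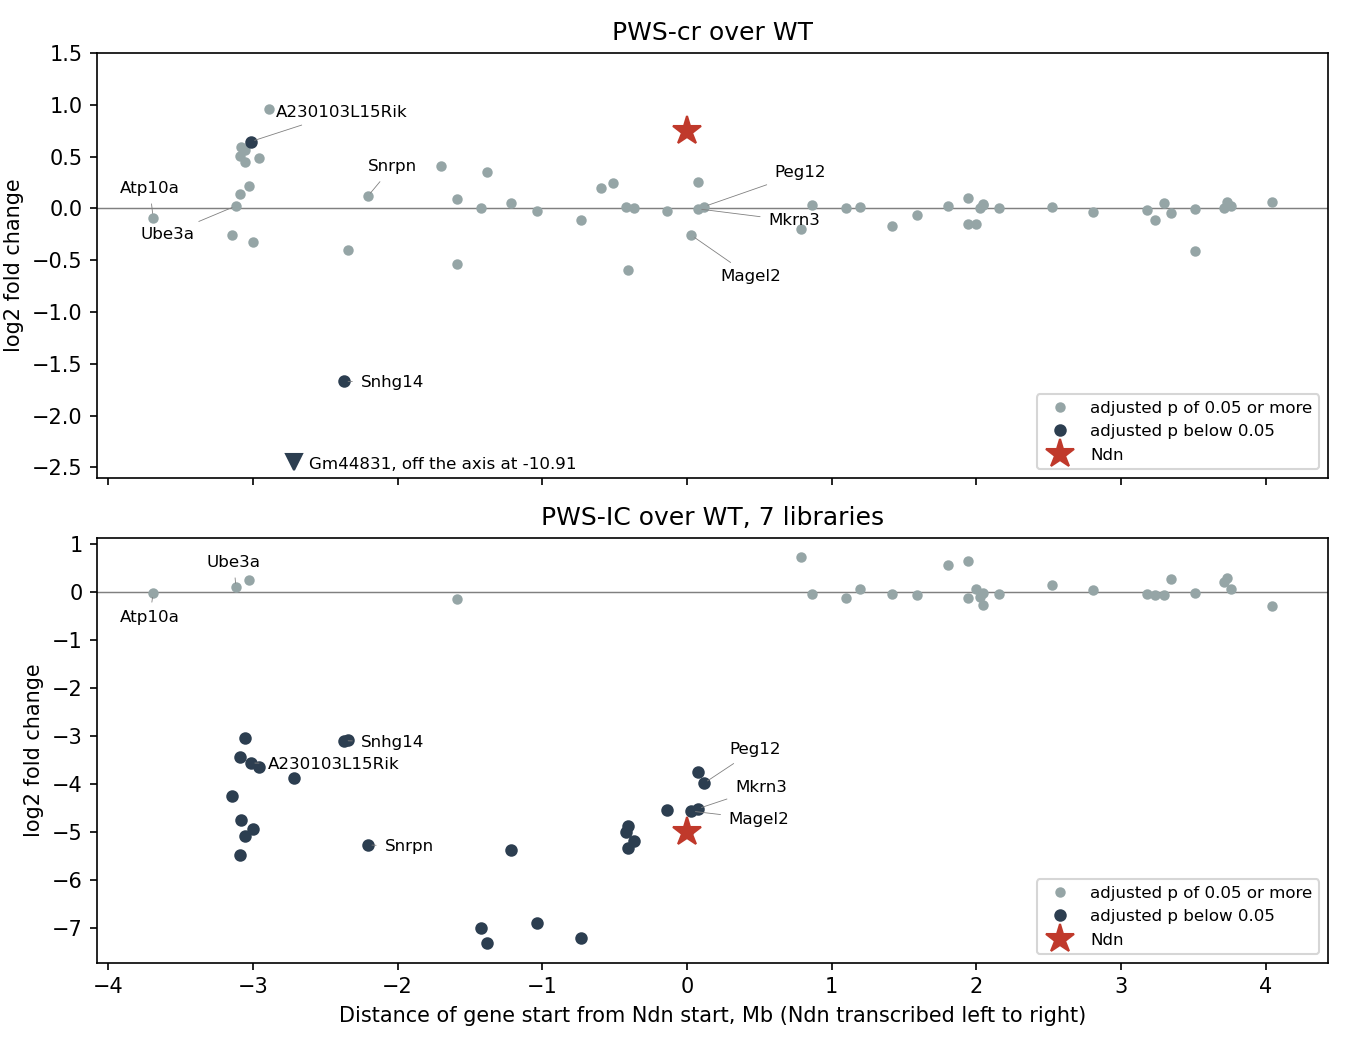
Log2 fold changes of the genes tested within 4 Mb of *Ndn*, by the distance of their starts, in PWS-cr mice over WT (upper panel) and in PWS-IC mice over WT in 7 libraries (lower panel), with the edgeR calls as dark points. In the upper panel *Ndn* is at 0.75 while *Magel2*, *Mkrn3* and *Peg12* are at or below 0.02, and in the lower panel *Ndn* is at -5.01 within a block of genes that fell.

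In the PWS-IC series *Ndn* was part of a block. Over the 7 libraries 53 genes were called among 21913 (0.242%), and 27 of the 56 other genes tested within 4 Mb of *Ndn* were called, each of them lower in PWS-IC mice. These 27 genes started between 3.14 Mb before *Ndn* (*Gm44742*) and 118 kb after it (*Peg12*), and their log2 fold changes ranged between -7.32 and -3.04, with 10 of them below that of *Ndn*. Within this stretch 3 other genes were not called, *Ube3a*, *Gm44829* and *Gm10297*. The 25 genes beyond *Peg12* had values between -0.28 and 0.73, and none was called. With all 9 libraries as labelled 0 of 22367 genes were called by edgeR and 1 by DESeq2 (0.00447%), and 1840 genes (8.23%) had an unadjusted edgeR p under 0.05. Because sex was confounded with genotype, the calls over the 7 libraries cannot be assigned to genotype alone. With sex added to the model the log2 fold change of *Ndn* was -4.95 over the 7 libraries and -0.96 over the 9. Both values rest on 1 female WT library.

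The neighbours kept different shares of their WT level in the 7 libraries. *Snrpn* averaged 6.49 ± 1.60 CPM in PWS-IC mice and 257 ± 19.4 CPM in WT (SD, n = 3 and 4), which is 2.52% of WT. The 7 libraries were set apart in part by their *Snrpn* level, so this separation follows in part from that choice. *Magel2* averaged 1.61 ± 0.114 CPM in PWS-IC mice and 37.4 ± 6.86 CPM in WT, which is 4.31%. *Mkrn3* kept 4.28%, *Peg12* 6.21% and *Snhg14* 11.7% of the WT level, so the 3.05% of *Ndn* lay between *Snrpn* and *Mkrn3*. *A230103L15Rik* kept 8.54%. Differences between these shares were not tested. The maternally expressed *Ube3a* averaged 217 CPM in PWS-IC mice and 200 CPM in WT, and *Atp10a*, a phospholipid transporter gene, averaged 7.01 CPM in PWS-IC mice and 6.98 CPM in WT, and neither was called. The profiles most like that of *Ndn* over the 7 libraries were those of *Gm44559*, *A330076H08Rik*, *A230057D06Rik*, *Snrpn* and *Gm44562*, with root mean square differences of 0.260 to 0.304. All 5 lie in the same block. With the 9 libraries the nearest were *Snrpn* (0.274) and *Mkrn3* (0.327). As labelled *Snrpn* averaged 102 ± 192 CPM in PWS-IC mice and 207 ± 114 CPM in WT (log2 fold change -1.88), and *Magel2* averaged 7.08 ± 10.9 CPM in PWS-IC mice and 30.1 ± 17.3 CPM in WT (log2 fold change -2.35, edgeR adjusted p = 0.565). Over the same 9 libraries the log2 fold change was -1.51 for *Mkrn3*, -1.41 for *Peg12*, -2.17 for *Snhg14*, -0.15 for *Ube3a* and -0.17 for *Atp10a*, and none was called.

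Genes of proteins that necdin is known to bind were not called in either series. All 20 on the list were tested, with 0 called in the PWS-cr series and a median log2 fold change of -0.00, beside 0.00 over all genes tested. In the same series DESeq2 called 0 as well, and 0 of the 20 passed an unadjusted edgeR p of 0.05, beside 459 of 22172 genes (2.07%). In the 7 PWS-IC libraries, where DESeq2 called 1.02% of all genes, 0 were called by either tool, with a median of 0.02, and 1 had an unadjusted p under 0.05, beside 2798 of 21913 genes (12.8%). That gene was *Msx1*, a homeobox transcription factor, which averaged 4.21 ± 0.696 CPM in PWS-IC mice and 6.06 ± 0.790 CPM in WT (log2 fold change -0.49, SE 0.131, edgeR adjusted p = 0.231). Over the 9 libraries 0 of the 20 passed an unadjusted p of 0.05, the median was 0.01, and *Msx1* averaged 6.26 ± 4.15 CPM in PWS-IC mice and 5.77 ± 0.935 CPM in WT (log2 fold change 0.07), so the sign for this gene turned.

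Among the partners *E2f1*, which drives entry into S phase, averaged 9.62 ± 0.877 CPM in PWS-cr mice and 9.71 ± 1.20 CPM in WT (SD, n = 6 and 5). *Sirt1*, a deacetylase, averaged 29.7 ± 1.57 CPM in PWS-cr mice and 29.6 ± 1.65 CPM in WT. The most abundant partners beside *Maged1* were *Hnrnpu*, a nuclear RNA-binding protein, at 705 ± 28.2 CPM in PWS-cr mice and 701 ± 33.0 CPM in WT, and *Eid1*, an inhibitor of differentiation, at 407 ± 8.70 CPM in PWS-cr mice and 407 ± 9.14 CPM in WT. For these 4 genes the difference was smaller than the spread between pups.

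Of 15 transcripts under necdin or E2F1 control 14 were tested, with 0 called in the PWS-cr series and 0 over the 7 PWS-IC libraries by either tool. In both, 0 had an unadjusted edgeR p under 0.05, beside 2.07% and 12.8% of all genes tested. In the PWS-cr series 2 of the 14 had positive values, and the median was -0.06. Of 13 neurotrophin signalling genes 13 were tested in the PWS-cr series and 12 in the PWS-IC series, again with 0 called by either tool. Here 0 and 1 had an unadjusted edgeR p under 0.05, beside the same shares of 2.07% and 12.8%. Over the 9 PWS-IC libraries edgeR called 0 genes in both lists. There 0 and 2 genes had an unadjusted edgeR p under 0.05, beside 8.23% of all genes tested. Of the 14 transcripts 12 had positive values (median 0.09), against 7 of 14 over the 7 libraries. The neurotrophin genes had a median of -0.08 over the 9 libraries.

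Of the other MAGE genes only *Magel2* was called, in the 7 PWS-IC libraries. All 8 measured members were tested, with 0 called in the PWS-cr series by either tool (0 with an unadjusted edgeR p under 0.05), and 1, *Magel2*, was called lower over the 7 PWS-IC libraries (log2 fold change -4.57, SE 0.155, edgeR adjusted p = 2.1e-08). Over the 9 libraries 0 were called, and 1 gene, which was not *Magel2*, had an unadjusted edgeR p under 0.05, beside 8.23% of all genes tested. *Maged1*, an X-linked relative that is itself a necdin partner, averaged 709 ± 18.2 CPM in PWS-cr mice and 713 ± 33.9 CPM in WT, and 734 ± 97.7 CPM in PWS-IC mice and 691 ± 31.4 CPM in WT (SD, n = 6 and 5, and n = 3 and 4). *Nsmce3*, a subunit of the SMC5/6 complex, averaged 25.5 ± 1.41 CPM in PWS-cr mice and 25.6 ± 0.681 CPM in WT.

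**Figure D4:**
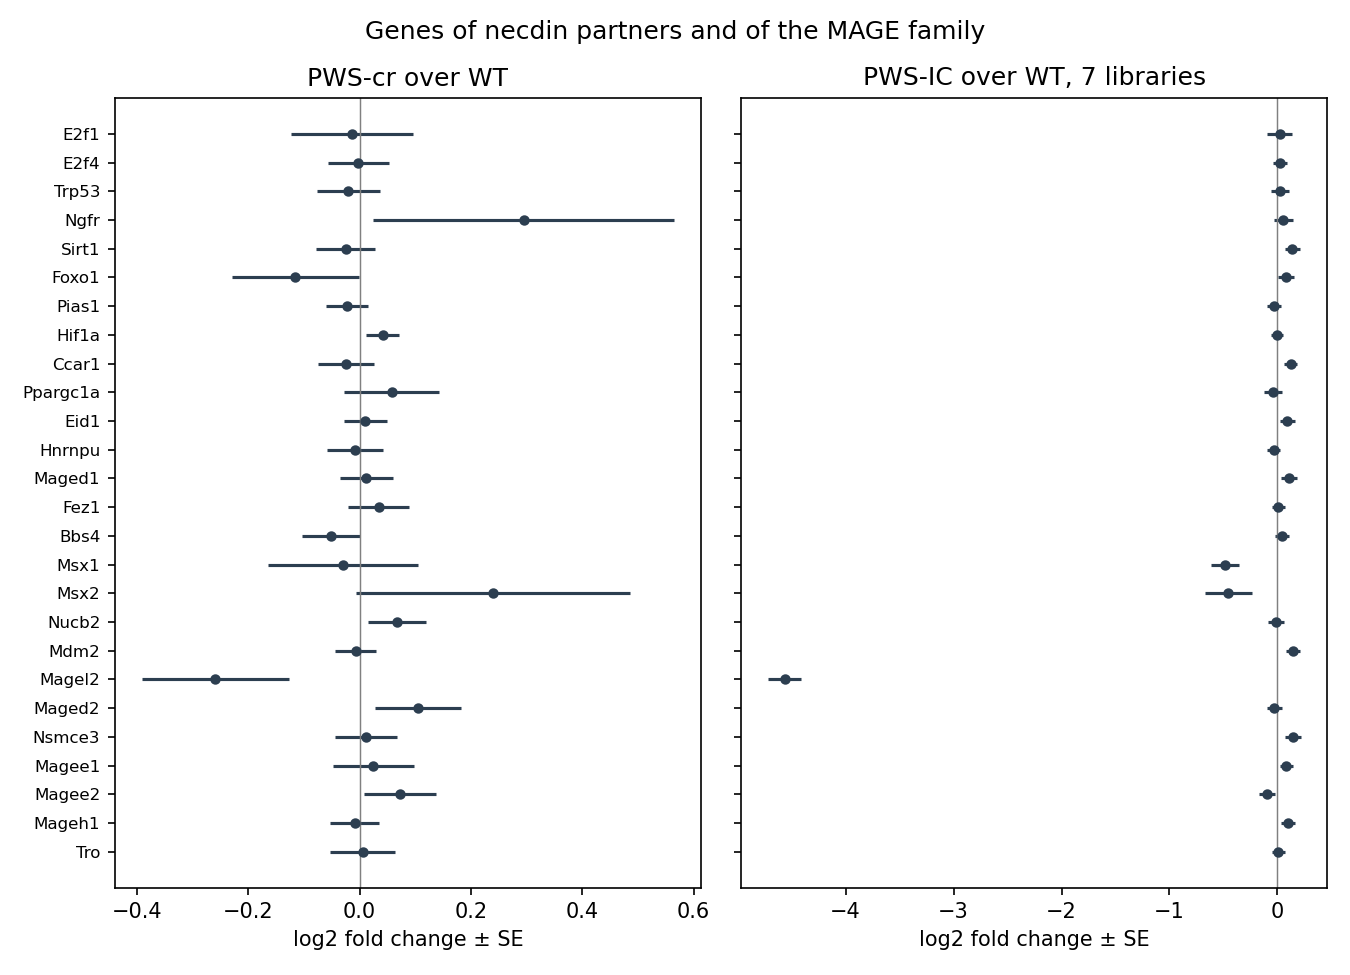
Log2 fold changes ± SE of necdin partner genes and of the MAGE genes beyond them, in PWS-cr mice over WT (left) and in PWS-IC mice over WT in 7 libraries (right), on axes of different range. *Magel2* at -4.57 is the single gene called, in the right panel.

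Neuronal content was checked because necdin is a neuronal protein. The 14 neuron markers summed to 9122 to 9585 CPM in PWS-cr mice and 8799 to 9610 CPM in WT, ranges that overlapped, and 0 of the 14 were called. *Ndn* over this sum was 0.0424 to 0.0524 in PWS-cr mice and 0.0233 to 0.0408 in WT, without overlap. Because the sum varied little, this ratio repeats the *Ndn* levels that picked the gene and is a description only. The same ratio overlapped between genotypes for some other lists, such as red blood cells and dividing cells. For others, such as GABAergic neurons and microglia, it did not. In the 7 PWS-IC libraries it was 0.00152 to 0.00177 in PWS-IC mice and 0.0497 to 0.0570 in WT, and in all 9 it was 0.00152 to 0.0898 in PWS-IC mice and 0.00118 to 0.0570 in WT. None of the 14 markers was at 0 throughout a group.

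Summed markers of other regions differed between libraries. In the PWS-cr series the 9 hindbrain and spinal cord genes summed to 0.483 to 82.3 CPM in PWS-cr mice and 0.969 to 27.0 CPM in WT, with 8 of 9 at positive values, a median log2 fold change of 2.19 and 0 called. Of these 9 genes 3 had an unadjusted edgeR p under 0.05, beside 459 of 22172 genes tested (2.07%). The PWS-cr libraries with 60.97 CPM or more of these genes, replicates 3, 5 and 6, had 456, 393 and 482 CPM of *Ndn*, and those with 4.88 CPM or less, replicates 1, 2 and 4, had 437, 457 and 442 CPM. In WT the libraries with 1.56 CPM or less, replicates 1 and 3, had 211 and 259 CPM of *Ndn*, and the others, at 25.1 to 27.0 CPM of these genes, had 261, 314 and 359 CPM. This division was drawn after the values were seen.

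Skeletal muscle genes, of which 7 of 9 were tested, had positive values in all 7 (median 1.23, 0 called) and summed to 10.9 to 73.6 CPM in PWS-cr mice and 10.3 to 43.3 CPM in WT. Genes of GABAergic neurons had positive values in 0 of 9 (median -0.20, 0 called) and summed to 529 to 760 CPM in PWS-cr mice and 665 to 778 CPM in WT. In both lists the summed levels of the genotypes overlapped. Hypothalamus genes had positive values in 3 of 12 (median -0.33, 0 called) and summed to 55.8 to 74.0 CPM in PWS-cr mice and 62.4 to 76.2 CPM in WT, with 1 of the 13 listed at 0 in all libraries of the series. Meninges and fibroblast genes had positive values in 8 of 9 (median 0.22, 0 called). The part of these lists in the level of *Ndn* was not tested. Over the 7 PWS-IC libraries 1 of 6 red blood cell genes was called higher by edgeR and 2 by DESeq2, beside 0.242% and 1.02% of all genes. Of the 6, 4 had an unadjusted edgeR p under 0.05, beside 12.8% of all genes. The 7 listed genes summed to 438 to 672 CPM in PWS-IC mice and 137 to 326 CPM in WT. Over all 9 libraries they summed to 390 to 672 CPM in PWS-IC mice and 137 to 1007 CPM in WT, and 0 were called. Over the 7 libraries that p was passed by 4 of 8 astrocyte and radial glia genes (median -0.17) and 2 of 9 oligodendrocyte lineage genes (median -0.22). Of 7 choroid plexus genes 2 passed it (median -0.17), and 1 was called lower by DESeq2 alone. Over the 9 libraries 0 passed it in each of these lists.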

How the data were processed

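RNA sequencing of 20 whole newborn brains was analysed. Per the labels and the study's methods, the authors aligned paired, unstranded reads with STAR (genome mm10), obtained gene counts with featureCounts, and dropped 1 library from each series as a clustering outlier. The deposited counts were the values tested. The authors' deposited TPM and FPKM scale by gene length, and TPM is the one used for levels. The authors' deposited signal, counts over a size factor, was not used, nor were the deposited log2 fold changes, p-values and score of the authors' DESeq2 comparison. The 2 libraries without a column were not analysed here.

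The models, 1 per series, held litter and genotype and were fitted by quasi-likelihood in edgeR 4.0.16 after TMM scaling, under R 4.3.3. A gene needed 10 counts in 4 libraries to enter, and an adjusted p below 0.05 to be called. The SE is the log2 fold change over the square root of F. DESeq2 1.42.0, RLE scaling, other filters and models and leaving out each library were alternatives. The fits were tested on simulated data. *Ndn*, the lists of genes and the rule for named genes (genes of the imprinted interval, listed genes that were called or were among the 4 most abundant of their list, the 5 profiles nearest to *Ndn* per series and the genes of the label check) were chosen with earlier results of these data known. *Gm24983*, *Gm44831*, *Gm44742*, *Gm44829*, *Gm10297* and *Msx1* are named for their values, and *E2f1*, *Sirt1* and *Nsmce3* were added after the values were seen. A permutation test of WT between the series was planned but is not reported, since those counts had served the choice. With litter in the model, p-values measure the spread between pups within litters, of which there were 4 in the PWS-cr series and 2 in the PWS-IC series. Litter 2 of the PWS-cr series held 1 library, which its litter term takes up. The genotype estimates with litter in the model thus rest on the other litters. Nothing states that the pups of a litter are independent. Total counts of 45798407 to 62103143 bounded counting error. Sequences are from RefSeq. The values of 1 listed gene are not reported here.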

Additional observations from a re-analysis of the deposited data

Results flagged for a closer look

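*Ndn* in the library labelled 1_3_IC, at 899 CPM, lay far above the other 3 PWS-IC libraries, and *Ndn* in the library labelled 1_7_IC, at 11.0 CPM, lay far below the other 4 WT libraries of that series. The gap to the nearest library was 0.998 of the range in PWS-IC mice and 0.856 in their WT, beyond Dixon's 95% limits of 0.829 and 0.71. In the PWS-cr series it was 0.496 in PWS-cr mice and 0.321 in WT, within the limits of 0.625 and 0.71. Both flagged libraries had already gone against their labels by other genes, and these counts had served to choose *Ndn*. The flags are therefore a description, and no chance rate is read from them.

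The genotype difference of *Ndn* pointed in opposite directions in the 2 models. Each of the 3 PWS-IC libraries other than 1_3_IC was below each WT library of its series other than 1_7_IC, and each PWS-cr library was above each WT library. The log2 fold change in PWS-IC mice minus that in PWS-cr mice was -5.76, and this difference was not tested, since both contrasts had served to pick the gene.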

How the results depend on the processing

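*Ndn* kept its direction under each alternative run in both series. In the PWS-cr series its log2 fold change was 0.46 in males and 0.96 in females without litter in the model, both chosen after seeing the data, and 0.55 to 0.85 with 1 library left out. Females with litter in the model could not be fitted. In the PWS-IC series it was -5.01 without 1_3_IC and 1_7_IC, -4.77 to -0.69 with 1 of 9 libraries left out, and -5.06 to -4.97 with 1 of the 7 left out. The number of genes called in the PWS-cr series was 10 without a filter, 1 in males without litter and 2 to 4 with 1 library left out. For the 9 PWS-IC libraries it was 471 without a filter, 53 without the 2 libraries and 0 to 1 with 1 left out. For the 7 libraries it was 223 by DESeq2, 978 without a filter, 31 with 10 counts in every library, 174 with sex added and 28 to 55 with 1 left out. WT of the PWS-IC series minus WT of the PWS-cr series was 0.89 without 1_7_IC (WT replicate 3), and -0.51 to 0.89 over all single omissions. Listed genes outside the interval called in the PWS-IC series were 0 with 9 libraries and 1 with 7. For litter the adjusted p was 0.48 to 0.99, and for sex the log2 difference was 0.0011 to 0.18, with 1 library left out, and neither was called under any alternative run. The causes of these changes were not tested. No paired analysis was possible because pups share no pairing beyond litter, which the model holds.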

Other observations

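The library labelled 1_3_IC had more *Ndn* than any of the 4 WT libraries of its series other than 1_7_IC. It had 1.78 times their mean as CPM, 1.68 times as FPKM and 1.40 times as TPM, so the excess depended on the unit. *Snrpn* was also higher in it, at 390 CPM against 240 to 285 CPM in those WT libraries, whereas *Magel2* was lower, at 23.5 CPM against 27.3 to 42.4 CPM. Of 14 marker lists 9 summed higher in it than in any of those WT libraries and 4 summed lower. Choroid plexus genes summed to 1324 CPM in it and to 583 to 767 CPM in those WT libraries. Hindbrain and spinal cord genes had 97.3 CPM in it and 2.28 to 61.2 CPM in those WT libraries, microglia genes 125 CPM in it and 71.0 to 98.4 CPM in WT, and hypothalamus genes 112 CPM in it and 72.2 to 82.5 CPM in WT. The part of these lists in the level of *Ndn* was not tested.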
